A study of Mus musculus with 12 samples.

Results

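Stimulated CD4+ T cells of XX mice that carried the Sry transgene (XXSry) were compared with those of XX mice without it, over autosomal genes. The comparison used 6 of the 12 libraries of the series, 3 per group, and covered the 34850 gene identifiers on chromosomes 1 to 19 among the 39017 in the deposited table. Of these, 13777 passed the filter on low counts and were tested. All differences are signed XXSry minus XX, so a positive value means a higher level with the transgene.

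The mice were of the SJL strain and of a model that uncouples the gonads from the sex chromosomes: the Y chromosome lacks Sry (written Y-), and Sry is carried as an autosomal transgene. XX and XXSry mice share the XX sex chromosomes. The labels list XX mice as female and XXSry mice as male, and every mouse was gonadectomized at 4 to 6 weeks of age by ovariectomy or castration, with carprofen around surgery and amoxicillin in the water afterwards. Lymph nodes were taken at 8 to 12 weeks, CD4+ T cells were isolated by magnetic removal of other cells, and a 36 hour culture with beads carrying anti-CD3 and anti-CD28 followed. The other 2 groups, XY- (labelled female) and XY-Sry (labelled male), had the same strain, surgery and culture, entered the estimate of spread and gave the same contrast in independent libraries. The design text names only the gonadal females, so the Sry contrast is implied by the labels and not stated there. Transgene, its autosomal site and gonad type went together in every mouse. The presence of Sry in the cells, the site of the transgene and the earlier life with testes or ovaries therefore cannot be told apart. Nothing in the labels says that the libraries came from separate animals, so p-values measure the spread between libraries, which may be technical.

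Sry encodes a transcription factor of the HMG-box family that starts testis development in the fetal gonad. Engagement of the T cell receptor and CD28 turns on immediate early transcription factors, NF-kB and cytokine genes, and moves the cell from quiescence to glycolysis and division. Sex hormones are known to affect T cell activation.

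The labels held in the counts: Sry had 0 reads in each XX library and 1349, 1706 and 2132 reads in the XXSry libraries. Total counts were 11664186 to 16151389 in XX and 13874970 to 16243434 in XXSry. Mitochondrial genes took 5.01% of the counts of XX replicate 3, which was also the library with the fewest counts. Their share was 2.73% and 2.87% in the other XX libraries and 2.27%, 2.38% and 2.63% in XXSry. The XX and XXSry shares therefore did not overlap, with or without XX replicate 3 (exact permutation test, two-sided, p = 0.1, the smallest p that 3 against 3 allows). Summed CD4 T cell identity genes were at 4627 to 5114 CPM in XX and 4442 to 4966 CPM in XXSry. CPM is the count after scaling by library size and by edgeR's TMM factor.

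With the transgene, 63 autosomal genes differed from XX at an edgeR adjusted p under 0.05, which was 0.457% of those tested. Of them 27 were higher (0.196%) and 36 lower (0.261%). Higher genes included the adhesion molecule Mcam, the inhibitory receptor Pdcd1 and the receptor-induced transcription factors Nr4a1 and Junb. Lower genes included the purine-breakdown enzyme Xdh, the hypoxia-induced genes Egln3 and Vegfa, and the stress transcription factor Xbp1. The sizes were modest: the median absolute log2 change of the called genes was 0.52, their range was 0.23 to 1.37, and 8 changed by more than 2-fold. The XX and XXSry libraries did not overlap for any of the 63, against 16.1% of all tested autosomal genes (8.14% higher and 7.93% lower). The 63 were called on these same libraries, so the lack of overlap is not separate support. It was also required of the genes named below for their large change. DESeq2 in place of edgeR called 246 autosomal genes (1.79%), 110 higher (0.798%) and 136 lower (0.987%), and limma voom with sample weights called 361 (2.62%), 130 higher (0.944%) and 231 lower (1.68%). Both sets held all 63. At an unadjusted p under 0.05, 956 genes (6.94%) were higher and 968 (7.03%) lower. In bulk RNA, fewer cells of one type and less RNA per cell cannot be told apart.

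**Figure D1:**
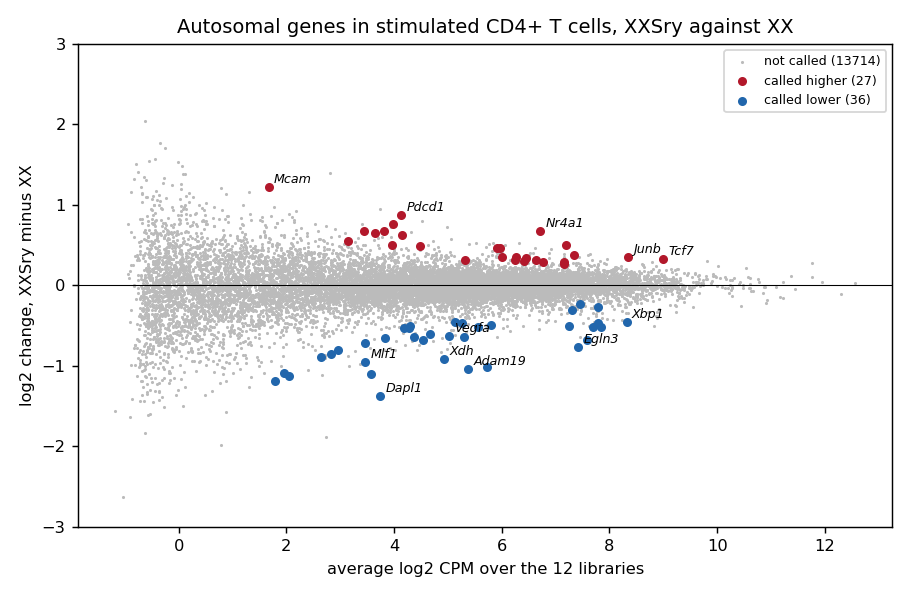
Each point is a tested autosomal gene: the x axis is its average log2 CPM over the 12 libraries and the y axis its log2 change, XXSry minus XX, from the edgeR fit. Red points are the 27 genes called higher, blue points the 36 called lower and grey points the rest. The called genes lie between -1.37 and 1.22.

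These calls rest on few libraries. Without XX replicate 3, 16 autosomal genes were called (0.115%; 5 higher and 11 lower), and 14 of them were among the 63. Leaving out XX replicate 1 gave 12 calls, XXSry replicate 1 gave 5 and XXSry replicate 2 gave 1, while leaving out XX replicate 2 gave 139 and XXSry replicate 3 gave 137. The libraries that only set the spread mattered as well, with 27 calls without XY- replicate 3, 24 to 41 without each XY-Sry library in turn and 115 without XY- replicate 2. A fit to only the 6 compared libraries called 3 genes, Xdh, Egln3 and Adam19, all lower. In each of these fits all 63 genes had the same sign and an unadjusted p under 0.05. The 63 were selected on these same libraries, so this is not separate support.

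The surface receptors that rose were led by Mcam (CD146), which binds endothelial and other cells. Mcam (chr9:44134469-44142727, mm10) stood at 1.99, 1.59 and 1.51 CPM in the XX libraries and at 4.25, 3.97 and 3.84 CPM in the XXSry libraries. Every XXSry library was well above every XX library, and the log2 change was 1.22 ± 0.18 (SE, n = 3 per group, edgeR adjusted p = 0.0153). Mcam stayed called without XX replicate 3, at 1.16, but its gene body overlaps a gene on the other strand, and reads from the 2 strands could not be told apart here. Pdcd1, the gene of the inhibitory receptor PD-1 (chr1:94038305-94052553), was at 10.2, 13.2 and 8.99 CPM in XX and at 21.0, 21.4 and 17.8 CPM in XXSry. The groups lay apart, and the log2 change was 0.88 ± 0.14 (edgeR adjusted p = 0.0181). Plxnd1, a semaphorin receptor that guides cell migration, rose less, by 0.47 ± 0.09 (edgeR adjusted p = 0.0356). Its XX libraries were close together, at 48.6 to 50.6 CPM, and its XXSry libraries were spread over 58.4, 68.3 and 80.0 CPM.

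Among transcription factors, Nr4a1 (Nur77), an orphan nuclear receptor induced by T cell receptor signals, was at 77.7, 66.3 and 82.7 CPM in XX and at 140, 118 and 104 CPM in XXSry. The groups did not overlap, and the log2 change was 0.68 ± 0.13 (edgeR adjusted p = 0.0324). Junb, a subunit of the AP-1 factor, rose by 0.36 ± 0.07, from 250 to 275 CPM in XX to 314 to 359 CPM in XXSry (edgeR adjusted p = 0.0367). Ikzf2, which encodes Helios, a factor of regulatory and some activated T cells, was at 116, 130 and 125 CPM in XX and at 193, 176 and 158 CPM in XXSry. All 3 XXSry values were above the XX values, with a log2 change of 0.51 ± 0.09 (edgeR adjusted p = 0.0296). Tcf7, the gene of TCF-1 of naive and memory T cells, rose by 0.33 ± 0.06 (edgeR adjusted p = 0.0367), from 413, 478 and 475 CPM to 541, 563 and 616 CPM. Rarg, a retinoic acid receptor, rose by 0.62 ± 0.12 (edgeR adjusted p = 0.0393). Its lowest library was XX replicate 3, at 11.6 CPM, and without it the value was 0.53 and not called. Of these 5 factors, Ikzf2, Junb and Tcf7 also overlap a gene on the other strand.

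The remaining rises among the 12 largest were in genes of varied function. Endod1, which encodes a protein with an endonuclease domain, was at 12.4, 12.2 and 11.3 CPM in XX and at 21.7, 20.8 and 18.4 CPM in XXSry. The XX libraries were nearly level, and the log2 change was 0.76 ± 0.11 (edgeR adjusted p = 0.0153). Mgat5, a glycosyltransferase that branches the N-glycans of T cell surface receptors, rose by 0.65 ± 0.12, from 9.21, 9.30 and 10.1 CPM to 16.4, 14.2 and 14.1 CPM (edgeR adjusted p = 0.0296). Lztfl1, a regulator of ciliary protein traffic, rose by 0.49 ± 0.09 (edgeR adjusted p = 0.0371), and this was larger without XX replicate 3, at 0.58. The other 3 were Phldb1, a pleckstrin-domain protein (0.68 ± 0.12), the tubulin Tubb2a (0.67 ± 0.12) and the protein kinase Dstyk (0.55 ± 0.10). Of the genes in this paragraph, Mgat5, Lztfl1, Phldb1 and Dstyk overlap a gene on the other strand.

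Several enzymes and transporters were among the 36 lower genes. Xdh, the enzyme that turns hypoxanthine and xanthine into uric acid (chr17:73883895-73950196), was at 47.0, 40.8 and 43.6 CPM in XX and at 20.6, 23.5 and 25.5 CPM in XXSry. The lowest XX library was well above the highest XXSry library. The log2 change was -0.91 ± 0.11, with the lowest edgeR adjusted p of all autosomal genes, 0.00275. It was the only one of the 63 still called in each of the 6 fits that left out 1 of the compared libraries. Gpt2, a mitochondrial alanine aminotransferase, was at 37.4, 28.2 and 28.2 CPM in XX and at 20.6, 19.4 and 19 CPM in XXSry, a log2 change of -0.68 ± 0.11 (edgeR adjusted p = 0.0181). Here XX replicate 1 was the high library, and the change without XX replicate 3 was -0.74. Slc6a9, a glycine transporter, fell by 0.72 ± 0.12 on the log2 scale (edgeR adjusted p = 0.0214), and it overlaps a gene on the other strand. Slc35d3, a nucleotide sugar transporter family member, was highest in XX replicate 3 (10.9 CPM, against 8.27 and 7.71 CPM), and its change moved from -0.85 ± 0.16 to -0.70 without that library. Msmo1, a methylsterol oxidase of cholesterol synthesis, had the smallest change of all called genes, -0.23 ± 0.05 (edgeR adjusted p = 0.0470).

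The surface and secreted proteins that fell included a protease, a cross-linking enzyme and receptors. Adam19, a membrane metalloprotease (chr11:46055992-46147343), was at 54.7, 68.7 and 62.6 CPM in XX and at 25.7, 29.4 and 35.6 CPM in XXSry. The groups lay far apart, with a log2 change of -1.03 ± 0.17 (edgeR adjusted p = 0.0181). The predicted genes Gm16033 (-1.12 ± 0.21) and Gm16034 (-1.18 ± 0.19) lie within it on the other strand, so the 3 calls may share reads. Tgm2, a transglutaminase that cross-links proteins, was at 103, 61.2 and 77.7 CPM in XX and at 34.7, 39.2 and 45.5 CPM in XXSry. XX was widely spread but above XXSry throughout, with a log2 change of -1.02 ± 0.16 (edgeR adjusted p = 0.0163). The predicted gene Gm20412 (-1.11 ± 0.20) overlaps Tgm2 on the other strand in the same way. F2r, a thrombin receptor, fell by 0.64 ± 0.09 on the log2 scale (edgeR adjusted p = 0.0153), from 44.9 to 58.4 CPM in XX to 30.9 to 32.9 CPM in XXSry. Selp, the adhesion molecule P-selectin, changed by -0.80 ± 0.13 (edgeR adjusted p = 0.0177), and it too overlaps a gene on the other strand. Izumo1r, the folate receptor of regulatory T cells, changed by -0.52 ± 0.11 (edgeR adjusted p = 0.0470), and XX replicate 1 was its low XX library, at 239 CPM against 310 and 312 CPM.

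Signalling and transcriptional regulators also fell. Xbp1, the transcription factor of the unfolded protein response, was at 381, 416 and 365 CPM in XX and at 272, 286 and 290 CPM in XXSry. The groups were far apart relative to their spread, with a log2 change of -0.46 ± 0.07 (adjusted p of edgeR 0.0153), and the call held without XX replicate 3, at -0.50. Nfil3, a basic leucine zipper repressor, changed by -0.52 ± 0.10 (edgeR adjusted p = 0.0367), and Dusp6, the phosphatase that switches off ERK, by -0.45 ± 0.08 (edgeR adjusted p = 0.0324). Rgs1, which damps chemokine receptor signals, was at 225, 184 and 284 CPM in XX and at 155, 143 and 134 CPM in XXSry. XX replicate 3 was its highest library, and the log2 change went from -0.68 ± 0.12 to -0.51 without it. Mlf1 (chr3:67374097-67400003), a gene named for a leukaemia translocation, was at 15.9, 13.4 and 13.5 CPM in XX and at 8.29, 7.18 and 6.80 CPM in XXSry. It had the second-lowest adjusted p (log2 change -0.95 ± 0.12, edgeR adjusted p = 0.00341) and, of the 12 fits that left out 1 library, was lost in that without XXSry replicate 2. It was also lost in the 6-library fit, and it overlaps a gene on the other strand. Dapl1, a gene of naive T cells in mouse, had the largest change, -1.37 ± 0.21 (edgeR adjusted p = 0.0153). It was at 17, 19.1 and 23.6 CPM in XX and at 4.61, 7.37 and 10.6 CPM in XXSry, so the XXSry libraries differed among themselves by more than 2-fold while staying below XX. Ddx43, an RNA helicase, changed by -0.60 ± 0.11 and by -0.48 without XX replicate 3, its highest library. A gene on the other strand overlaps Ddx43 as well.

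**Figure D2:**
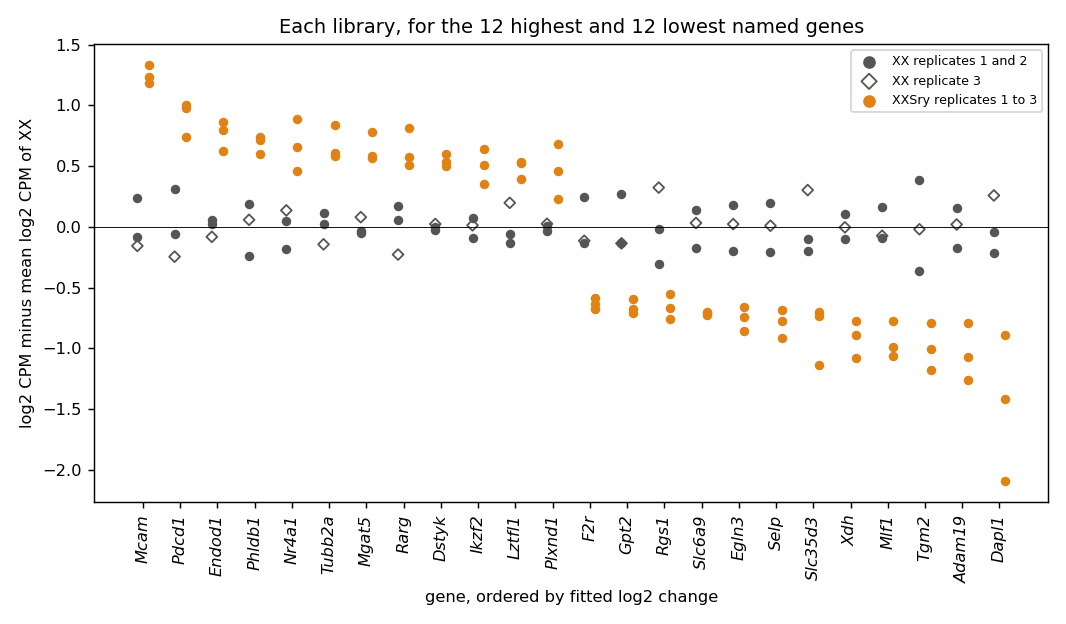
For each of the 24 genes with the largest change in either direction by the naming rule, points give log2 CPM of each library minus the mean log2 CPM of the 3 XX libraries. XX libraries are grey, XX replicate 3 is an open diamond and XXSry libraries are orange. The naming rule required groups that do not overlap, so in all 24 genes the orange points lie on one side of every grey point.

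The other 29 called genes fell outside the naming rule and were looked at after their values were seen. The 13 higher ones had log2 changes of 0.27 to 0.50 and included the calcium pump Atp2b4 (0.47 ± 0.08), the scaffold protein Ahnak (0.37 ± 0.07), the small GTPase Rras2 (0.27 ± 0.05) and the kinase Sik1 (0.31 ± 0.06). The 16 lower ones had log2 changes of -1.18 to -0.27 and included the carbonic anhydrase Car12 (-0.49 ± 0.07), the chromatin remodeller Chd7 (-0.52 ± 0.09), the mRNA-stabilising protein Arid5a (-0.47 ± 0.09) and the actin regulator Rflnb (-0.64 ± 0.10). Of all 63, 57 are annotated as protein coding and 28 overlap a gene on the other strand. The called genes lay on 16 of the 19 autosomes. Chromosomes 1 and 9 held 8 each, of 788 and 779 tested genes, and chromosomes 5, 16 and 18 held 0. Just inside the threshold were Swap70 (0.35 ± 0.07) and Irf2bpl (0.35 ± 0.07), both at an edgeR adjusted p of 0.0491. Just outside were Setdb2 (-0.37 ± 0.08), Bsn (0.57 ± 0.12) and Lss (-0.24 ± 0.05), each at 0.0516.

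Pathway lists were described by the number of their members called and by their median. Over all 13777 autosomal genes 0.457% were called and the median was -0.00. The type I interferon response list, whose genes block viral replication, had the lowest median, -0.48 over 48 tested members. None of the 48 was called by edgeR, and 45 had a negative log2 change. At an unadjusted p under 0.05, 33 were lower and 0 higher, against 7.03% and 6.94% of all tested genes. Isg20, an antiviral exonuclease, had the lowest p of the list and was at 36.5, 38.7 and 45.8 CPM in XX and at 19.8, 20.7 and 27.5 CPM in XXSry. The groups did not overlap, but the log2 change of -0.82 ± 0.19 missed the threshold (edgeR adjusted p = 0.0679). Lgals3bp, a secreted glycoprotein induced by interferon, was at -0.35 ± 0.09 (edgeR adjusted p = 0.0844). The summed level of the list was 5189, 4555 and 5047 CPM in XX and 3949, 4235 and 4746 CPM in XXSry, so the sums overlapped. The median was -0.44 without XX replicate 3. DESeq2 called 10 of the 48 lower, against 0.987% of all tested genes, and voom 17, against 1.68%, with 0 higher in either. The interferon gamma and GTPase list had a median of 0.05, with 0 of 27 called by edgeR, DESeq2 or voom and 3 lower at an unadjusted p under 0.05.

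The glycolysis and hypoxia list had a median of -0.18 over 38 members, with 2 called lower and 0 higher by edgeR. Egln3, the prolyl hydroxylase PHD3 that marks HIF for decay and is itself a HIF target, was at 253, 194 and 227 CPM in XX and at 134, 123 and 141 CPM in XXSry. The groups were far apart, with a log2 change of -0.76 ± 0.12 (edgeR adjusted p = 0.0177). Vegfa, the endothelial growth factor, was at 44.3, 41.7 and 42.1 CPM in XX and at 26.5, 26.1 and 30.4 CPM in XXSry, a log2 change of -0.63 ± 0.13 (edgeR adjusted p = 0.0436). Without XX replicate 3 neither was called, although the changes were -0.75 and -0.63. At an unadjusted p under 0.05, 16 members were lower and 1 higher, against 7.03% and 6.94% of all tested genes. DESeq2 called 5 members lower and 1 higher, against 0.987% and 0.798%. Limma voom called 9 lower and 1 higher, against 1.68% and 0.944%. The summed level was 11403 to 12333 CPM in XX and 10171 to 11068 CPM in XXSry, so these sums did not overlap.

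The NF-kB list had a median of 0.17 over 29 members and 0 called. Of these, 24 had a positive log2 change. At an unadjusted p under 0.05, 15 were higher and 1 lower, against 6.94% and 7.03% of all tested genes. DESeq2 called 4 of the 29 higher and voom 5, against 0.798% and 0.944% of all tested genes. Nfkb1, the p105/p50 subunit, was at 388, 387 and 370 CPM in XX and at 496, 476 and 429 CPM in XXSry, a log2 change of 0.29 ± 0.07 (edgeR adjusted p = 0.0678). Every XXSry library was above every XX library. Tnip1, an inhibitor of NF-kB signalling, was at 0.28 ± 0.07 (edgeR adjusted p = 0.0991). The Th17 list had the highest median, 0.27 over 12 members, with 0 called, 11 positive and 6 higher at an unadjusted p under 0.05. Of its 12 members DESeq2 called 3 higher and voom 2, beside the same shares of all tested genes. Its lowest p values were those of the interleukin 6 receptor chains Il6ra (0.38 ± 0.10, edgeR adjusted p = 0.0984) and Il6st (0.25 ± 0.07, edgeR adjusted p = 0.103).

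The remaining lists had medians between -0.13 and 0.13. Among 26 immediate early genes, Nr4a1 and Junb were called higher and Nfil3 lower, with a median of 0.07. Of 15 regulatory T cell genes, Ikzf2 was called higher and Izumo1r lower, and of 23 genes of naive and quiescent T cells, Tcf7 was called higher and Dapl1 lower. In these 3 lists the called genes therefore moved in both directions. Mcam and Plxnd1 were the called genes among 31 of homing and adhesion, and Pdcd1 was the called gene among 24 costimulatory and inhibitory receptors and among 10 of follicular helper cells. The ATF4 list of amino acid stress had a median of -0.13 and 0 of 30 called by edgeR. At an unadjusted p under 0.05, 11 of its members were lower (7.03% of all tested genes) and 1 higher (6.94%). DESeq2 called 3 members lower (0.987% of all tested genes) and 1 higher (0.798%). Nupr1, a stress-induced chromatin protein, was closest to the threshold there, at -1.21 ± 0.26 (edgeR adjusted p = 0.0516). edgeR called 0 of 23 cytokines, 0 of 30 genes of the T cell receptor complex and its signalling, 0 of 38 of DNA replication and mitosis, 0 of 73 cytosolic ribosomal protein genes, 0 of 75 nuclear respiratory chain genes and 0 of 17 steroid receptor and handling genes. At an unadjusted p under 0.05 these lists held 6, 6, 3, 9, 7 and 5 genes, and DESeq2 called 1, 3, 0, 0, 2 and 1. Over all tested autosomal genes the shares were 14.0% and 1.79%. In the steroid list the widest difference was that of Akr1c18, which inactivates progesterone in mouse. It was at 5.35, 20.6 and 9.88 CPM in XX and at 3.03, 3.72 and 2.97 CPM in XXSry, a log2 change of -1.89 ± 0.43 (edgeR adjusted p = 0.0678).

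**Figure D3:**
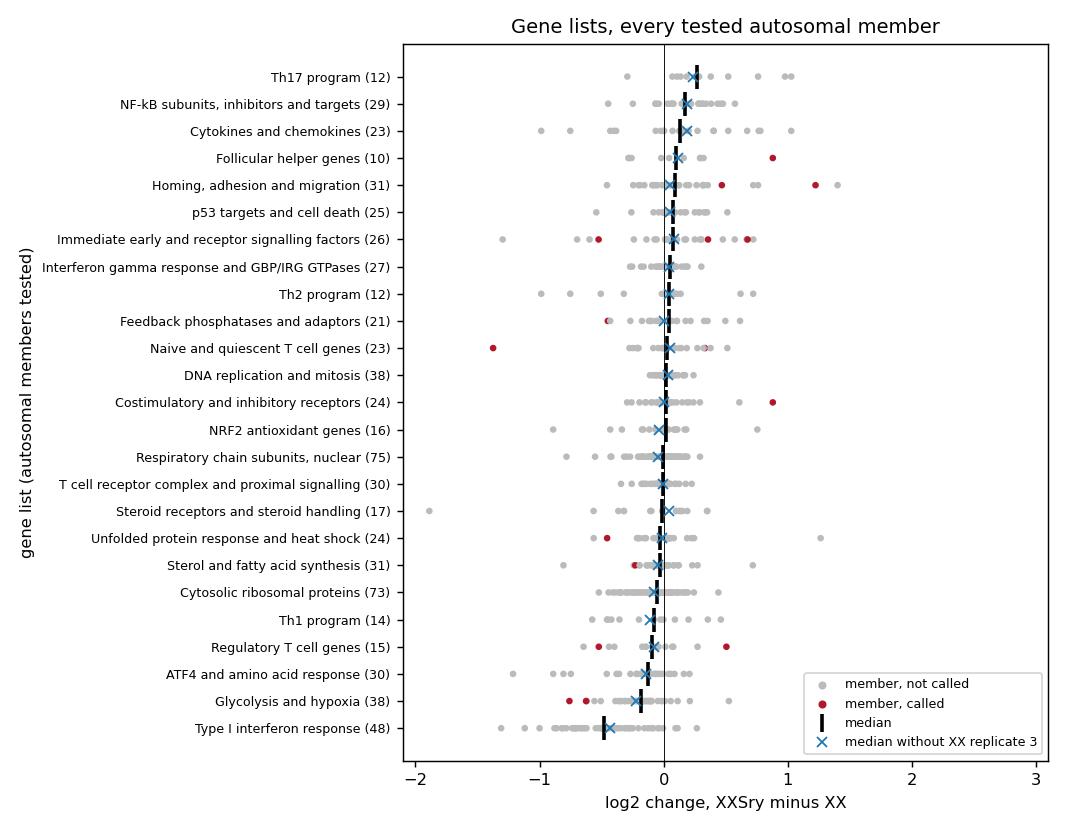
Each row is a gene list with the number of its tested autosomal members, and each point is the log2 change of a member, XXSry minus XX, red where called. Black bars are medians over the 12-library fit and blue crosses are medians without XX replicate 3. The medians run from -0.48 for type I interferon to 0.27 for Th17, and the crosses stay near the bars.

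Genes listed as markers of cell types that should have been removed were still counted, which does not show that such cells were present. Their sums stand beside 4627 to 5114 CPM in XX and 4442 to 4966 CPM in XXSry for CD4 T cell identity genes. Summed B cell markers were at 296 to 356 CPM in XX and 342 to 378 CPM in XXSry, and myeloid and dendritic markers at 53.1 to 91.1 and 63.5 to 73.4 CPM, with Itgax, Lyz1, S100a8, S100a9 and Cd209a at 0. CD8 T and NK cell markers were at 122, 69.5 and 108 CPM in XX and 71.7 to 76.5 CPM in XXSry. Of its 8 tested members 4 were lower and 1 higher at an unadjusted p under 0.05 (7.03% and 6.94% of all tested genes). The median log2 change of this list was -0.39, or -0.17 without XX replicate 3. The B cell list had a median of 0.25, with 2 of 8 members higher and 0 lower. None of these members was called by edgeR. Within the CD8 T and NK cell list the transcription factor Eomes was at 66.9, 27.0 and 48.5 CPM in XX and at 33.2, 35.1 and 27.3 CPM in XXSry. Eomes was also in the list of Th1 genes, so its counts need not come from CD8 T or NK cells. Stroma and endothelium markers were at 107 to 127 and 104 to 145 CPM, and gamma delta and NKT markers at 7.53 to 8.19 and 8.01 to 8.51 CPM. The erythrocyte and platelet sum did not overlap, at 1.37 to 1.66 CPM in XX and 1.11 to 1.30 CPM in XXSry, with Hba-a1, Hba-a2 and Gp9 among the members at 0. The part of these cells in the called genes was not tested.

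The interferon, hypoxia and NF-kB lists are named for factors with known DNA motifs. The 250 bases before each gene's RefSeq start were therefore searched on both strands for these motifs and for that of SRY and SOX factors, 4 in all. A window was given for 9576 of the 13777 tested genes and for 51 of the 63 called genes. ACGTG, the core of the hypoxia response element, was in 16 of 34 windows of the glycolysis and hypoxia list (47.1%), in 22.1% of all windows and in 6 of the 51 called windows (11.8%). GAAA, any 2 bases and GAAA again, the core of the interferon response element, was in 15 of 36 windows of the type I interferon list (41.7%), in 2.78% of all windows and in 1 of the 51 called windows, that of Vegfa. AACAAT, a motif bound by SRY and SOX factors, was in 3 of the 51 called windows (5.88%) and in 4.8% of all. GGGA, any base and TTTCC, an NF-kB motif, was in 1 of 25 windows of the NF-kB list, in 0 of the 51 called windows and in 0.303% of all. A match is a description of letters and not a measured binding site. The stretches below (RefSeq, GRCm38.p6, gene strand, 5′ to 3′) show a match in the called gene Egln3, in the glucose transporter gene Slc2a1 of the same list, in 2 interferon-induced genes and in the called gene Dusp6. Slc2a1 had a log2 change of -0.35, Slfn8 of -0.49 and Trim30a of -0.44, none of them called, and these 3 were chosen after their values were seen. Capitals mark the motif, ACGTG in the first 2, the reverse complement of the interferon motif in the next 2 and AACAAT in the last.
Egln3 (chr12:54204074-54204124, minus strand): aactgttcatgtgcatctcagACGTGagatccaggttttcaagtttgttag
Slc2a1 (chr4:119108684-119108738, plus strand): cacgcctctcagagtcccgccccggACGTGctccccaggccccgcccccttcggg
Slfn8 (chr11:83020824-83020883, minus strand): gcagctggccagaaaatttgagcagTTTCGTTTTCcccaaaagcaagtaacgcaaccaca
Trim30a (chr7:104465195-104465254, minus strand): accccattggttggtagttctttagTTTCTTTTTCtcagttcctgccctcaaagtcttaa
Dusp6 (chr10:99263090-99263145, plus strand): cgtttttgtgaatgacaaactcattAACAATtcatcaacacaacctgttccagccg

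The same contrast in XY- cells used 6 other libraries and gave the same direction for all 63 genes, against 65.6% of all tested autosomal genes. In XY- cells 95 autosomal genes were called (0.69%), 14 higher (0.102%) and 81 lower (0.588%), and 32 of the 63 were among them. These 32 were 50.8% of the calls in XX and 33.7% of those in XY-. Both contrasts shared the estimate of spread of each gene, so being called in both is not separate support. The 32 became 8, 4 and 14 when XY-Sry replicate 1, 2 or 3 was left out, 6 and 16 when XY- replicate 2 or 3 was, and 14 when XXSry replicate 2 was, while the direction held for all 63 in each. The XY- and XY-Sry libraries lay apart in the same direction for 59 of the 63. Dapl1 was at 19.4 to 20.9 CPM in XY- and at 4.61, 6.33 and 6.21 CPM in XY-Sry, a log2 change of -1.82 (edgeR adjusted p = 0.00174). Mlf1, Mcam, Xdh, Egln3 and Nr4a1 were called there too, at -0.93, 1.20, -0.73, -0.80 and 0.84. Pdcd1 was at 13.6 to 19.2 CPM in XY- and 21.0 to 23.5 CPM in XY-Sry, and its log2 difference of 0.44 was not called (edgeR adjusted p = 0.171). Phldb1 was at 12.2, 12.6 and 13.8 CPM in XY- and at 15.4, 13.2 and 15.8 CPM in XY-Sry, so the groups overlapped, with a log2 change of 0.20. The glycolysis and hypoxia list had a median of -0.36 in XY- cells and the type I interferon list one of -0.51.

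The difference between the transgene contrasts was tested as an interaction. No autosomal gene was called by edgeR (lowest adjusted p = 1.00) or DESeq2, and 353 (2.56%) had an unadjusted edgeR p under 0.05. Of the 63, 7 were below it: Phldb1, Rarg, 2700081O15Rik, Mgat5, Ddx43, Pdcd1 and Sik1, in order of p. Phldb1 had an interaction of 0.48 ± 0.16 on the log2 scale (edgeR adjusted p = 1.00). No gene could therefore be called particular to XX cells. The change was larger in XX than in XY- for 51 of the 63, with a median size ratio, XY- over XX, of 0.83, but these genes were selected on their XX values.

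**Figure D4:**
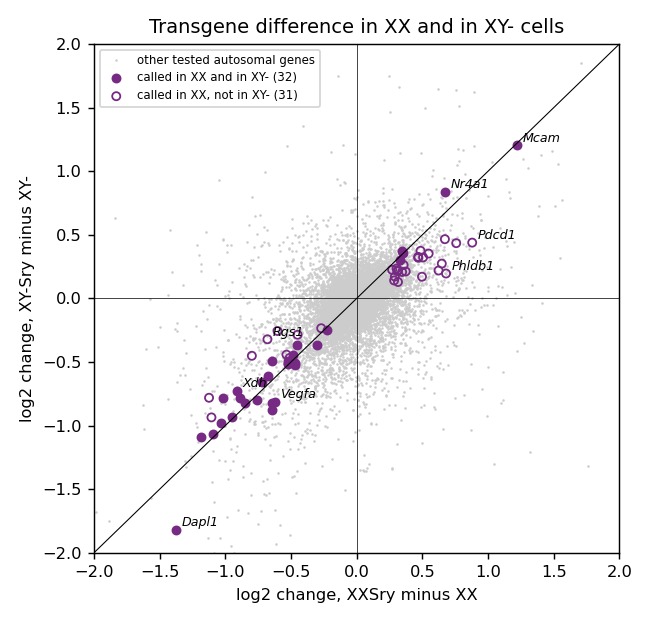
Each point is a tested autosomal gene, with its log2 change in XX cells on the x axis and in XY- cells on the y axis, and the diagonal marks equal changes. Filled purple points are the 32 genes called in both, open ones the 31 called in XX alone, and 6 genes lie outside the axes. All 63 purple points share the sign of both changes.

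The dependence on XX replicate 3 was looked at gene by gene. Without it, the 63 genes kept a median of 0.98 of their log2 change, with ratios of 0.74 to 1.20. The 14 that stayed called were Mcam, Endod1, Lztfl1 and Sik1 among the higher, and Xdh, Mlf1, F2r, Xbp1, Car12, Gpt2, B430306N03Rik, Gm16033, Gm16034 and Gm20412 among the lower. Dapl1 was just outside the threshold, at -1.24 and an edgeR adjusted p of 0.0507. The 5 genes whose change moved most were Dapl1, Slc35d3, Rgs1, Gm16033 and Ddx43, and of these Gm16033 grew, from -1.12 to -1.24. XX replicate 3 was the XX library farthest from XXSry in 11 of the 27 higher genes (40.7%) and 15 of the 36 lower ones (41.7%). Over all tested genes it held that place in 44.7% and 44.9%. XX replicate 1 was farthest in 17 of the 36 lower genes (47.2%), against 24.1% of all tested genes with a lower level in XXSry. For the 27 higher genes it was farthest in 9 (33.3%), against 26.0%.

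The mitochondrial share moved with the groups as well as with that library. It was lower with the transgene in XY- cells too, at 2.66 to 2.75% in XY- and 2.41 to 2.59% in XY-Sry libraries. These did not overlap (exact permutation test, two-sided, p = 0.1), so the contrast in independent libraries carried a shift in the same direction. Removing mitochondrial genes from the table left the 63 calls as they were. With the log2 share of each library as a covariate in the edgeR fit, 9 autosomal genes were called, 2 higher and 7 lower. Of these, 7 were among the 63: Xdh, Mlf1, F2r, Xbp1, Gpt2, B430306N03Rik and Lztfl1. These 7 were also among the 14 called without XX replicate 3. That library had the highest share, 5.01%, so the fit with the covariate and the fit without it are not separate checks. All 63 had the same sign in this fit, and the log2 changes were 0.56 to 1.34 times those without the covariate. Rgs1 went from -0.68 to -0.42 and Dapl1 from -1.37 to -1.06, while Xdh stayed at -0.91. The part of the mitochondrial share in the other calls was not tested further.

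**Figure D5:**
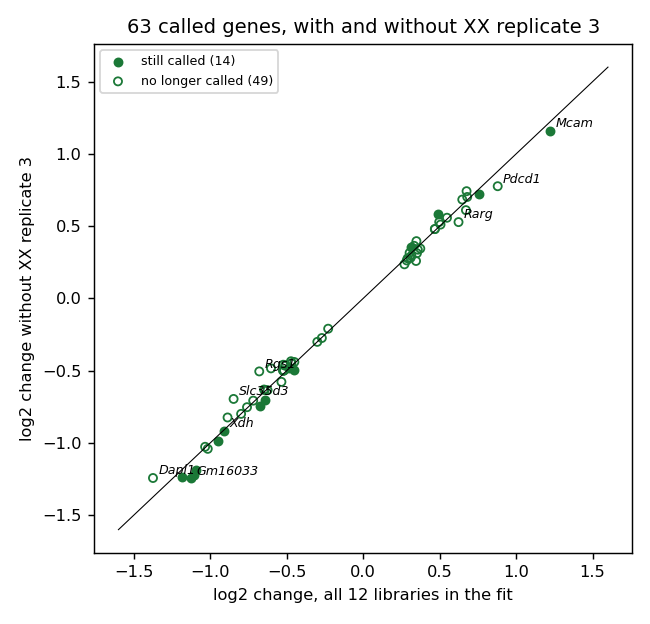
Each point is one of the 63 called genes, with its log2 change from the 12-library fit on the x axis and from the fit without XX replicate 3 on the y axis, and the diagonal marks no change. Filled points are the 14 genes still called and open points the 49 that were not. The points lie near the diagonal, and Dapl1, Slc35d3 and Rgs1 are closer to 0 without that library.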

How the data were processed

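Raw counts of reads per mouse gene (Ensembl identifiers) were deposited by the authors as a single table with 12 library columns, per the file headers; all values were whole. The submitters' processing notes name bcl2fastq 2.17 and the build mm10. The sources used here give no aligner, counter, annotation release or strand setting. GENCODE M21 (mm10) matched 37693 of 39017 identifiers and gave symbols and positions.

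Groups came from the labels, with 3 libraries in each. edgeR 4.0.16 in R 4.3.3 used TMM factors, filterByExpr (minimum count 10, minimum total 15), 1 term per group over all 12 libraries (8 residual degrees of freedom) and the quasi-likelihood F-test. P-values were adjusted by Benjamini-Hochberg over all 14585 genes tested, sex-linked ones included, with 0.05 as the threshold for a call. Errors of log2 changes are standard errors. Total counts were 11664186 to 16710188. Replicates differed by more than sampling noise (2.47 to 18.0 chi-square units per degree of freedom, genes under 20 counts left out), and none was merged. The fits were tested on simulated data.

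Named genes were the 12 called genes with the largest change in each direction (average log2 CPM of at least 1, groups not overlapping, no predicted genes), up to 4 called members of each of 25 pathway lists or the 2 of lowest p, and the 5 called genes that moved most without XX replicate 3. The comparison, lists and settings were chosen with earlier results of these data known. Alternatives were DESeq2 1.42.0, limma 3.58.1 voom with sample weights, other filters and scaling, a replicate block, the 6 compared libraries alone, mitochondrial genes removed or as a covariate, and each library left out. Values of some single genes are not reported here.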

Additional observations from a re-analysis of the deposited data

How the results depend on the processing

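All 63 genes, which were selected on these same libraries, kept their sign wherever they were tested, but the number called depended on the fit. The 63 calls (27 higher, 36 lower) became 593 (247 and 346) with no filter on low counts, 246 (110 and 136) with DESeq2 in place of edgeR, 361 (130 and 231) with limma voom and sample weights, 3 (0 and 3) with only the 6 XX and XXSry libraries, and 9 (2 and 7) with the mitochondrial share as a covariate. Size factors of DESeq2 in edgeR and removal of mitochondrial genes gave 63 each, and a mean of at least 50 reads gave 68. Of the 63, 62 were called with no filter and all 63 with DESeq2 and with voom. Leaving out 1 library at a time gave 1 to 139 calls, 0 to 56 higher and 1 to 83 lower. Replicate numbers did not pair the libraries throughout: same-numbered XX and XXSry libraries had correlations of their deviations of 0.18, -0.03 and 0.04. The highest correlation was that of XX replicate 1 with XXSry replicate 1 (0.182), followed by XX replicate 2 with XXSry replicate 3 (0.176). With the replicate number as a block, 92 genes were called (36 higher and 56 lower), 61 of them among the 63. The interaction had 0 calls in each of these fits that could give it except with no filter, where it had 20. It could not be fitted with the 6 libraries alone. B2m, which was not called (-0.25), turned to 0.00066 with the mitochondrial covariate (edgeR adjusted p = 0.999). Adjusting over autosomal genes alone called the same 63. The cause of these shifts was not tested. The 6-library fit also had fewer residual degrees of freedom (4 against 8). With 3 libraries per group, changes of low genes were measured with wide errors.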
